A study of Mus musculus with 199 samples.

Results

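T cells sorted from the blood of tumour-bearing mice were compared between animals given a CXCR2 inhibitor together with an antibody to PD-1 (the combination) and animals given neither drug (untreated). The members were the 12 libraries whose titles name blood T cells of DEN ALIOS mice with both drugs, 5 libraries, or with no drug, 7 libraries, out of 199 libraries in the series. DEN ALIOS mice receive the liver carcinogen diethylnitrosamine (DEN) and the ALIOS diet, which is rich in fat and sugar, and serve as a model of hepatocellular carcinoma on fatty liver disease. All mice of the groups below were labelled male and WT, C57BL/6 from an in-house colony, and both DEN and the diet were shared by every group, untreated animals included. Library names place each blood library in a different mouse. Ages are not given in the labels. Of the 7 untreated libraries, replicates 3 and 4 carry the added label Vehicle. Blood T cells of DEN ALIOS mice given the antibody alone (aPD1, 5 libraries) or the inhibitor alone (CXCR2i, 6 libraries, of which replicates 1, 4, 5 and 6 are labelled as having had an aPD1 isotype antibody) were used beside them. CD3+ cells were sorted by flow cytometry to a purity of at least 97% per the labels, and total RNA was sequenced from stranded libraries for low input.

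The sequencing run is written in the library name and does not split evenly over the groups. All 7 untreated libraries and combination replicates 1 and 2 came from a first set of 2 runs (run set A), and combination replicates 3, 4 and 5 from a second set of 2 runs (run set B) that held no untreated library. All 5 aPD1 libraries and 4 of the CXCR2i libraries were of run set B, and the other 2 CXCR2i libraries were of another run (run set C). The comparison is therefore given in 2 readings throughout. The within-run reading has run set as a term, and rests on 2 combination against 7 untreated libraries of run set A. The pooled reading has no run term, and sets all 5 combination against all 7 untreated libraries, of which 3 combination libraries cannot be told apart from their run set.

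PD-1, encoded by *Pdcd1*, is an inhibitory receptor that T cells display after activation, and its ligands PD-L1 (*Cd274*) and PD-L2 (*Pdcd1lg2*) on other cells restrain them. CXCR2 is a chemokine receptor that draws neutrophils into inflamed tissue. Gamma delta T cells carry a receptor made of gamma and delta chains, and many of them respond to interleukin-1 and interleukin-23 through receptors for these cytokines. *Rora* encodes the nuclear receptor RORα.

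Promoters of genes of the IL-17 and gamma delta list and of other genes that stood out beside them are shown here, 250 bases before to 50 bases after the annotated start, from RefSeq on GRCm38.p6. The capitals mark the letters AGGTCA or its reverse complement TGACCT, a core motif that RORα and other nuclear receptors recognise. *Il23r* (chr6:67491806-67492105, minus strand) and *Ccr6* (chr17:8235793-8236092, plus strand) encode the interleukin-23 receptor and a receptor for the chemokine CCL20. *Plxnd1* (chr6:115994956-115995255, minus strand) encodes a semaphorin receptor. *Il1r1* (chr1:40224830-40225129, plus strand) encodes the interleukin-1 receptor and *Mmp25* (chr17:23645220-23645519, minus strand) a membrane-anchored matrix metalloproteinase.
Il23r: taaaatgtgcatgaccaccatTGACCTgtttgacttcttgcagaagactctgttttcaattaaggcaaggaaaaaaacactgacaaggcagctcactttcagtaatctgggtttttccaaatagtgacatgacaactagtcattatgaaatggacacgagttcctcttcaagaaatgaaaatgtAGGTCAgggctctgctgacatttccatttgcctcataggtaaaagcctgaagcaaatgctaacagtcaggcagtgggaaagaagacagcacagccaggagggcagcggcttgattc
Ccr6: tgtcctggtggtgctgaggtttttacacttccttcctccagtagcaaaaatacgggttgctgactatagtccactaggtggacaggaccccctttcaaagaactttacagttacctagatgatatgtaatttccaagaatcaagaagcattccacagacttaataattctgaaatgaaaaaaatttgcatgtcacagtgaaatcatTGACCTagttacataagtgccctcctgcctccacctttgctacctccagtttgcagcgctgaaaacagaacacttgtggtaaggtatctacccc
Plxnd1: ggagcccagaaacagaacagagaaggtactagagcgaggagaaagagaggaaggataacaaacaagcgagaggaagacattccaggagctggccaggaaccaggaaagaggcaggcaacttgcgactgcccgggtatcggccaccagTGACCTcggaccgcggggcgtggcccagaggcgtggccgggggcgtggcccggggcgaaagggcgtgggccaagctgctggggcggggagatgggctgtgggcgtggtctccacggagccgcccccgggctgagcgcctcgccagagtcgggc
Il1r1: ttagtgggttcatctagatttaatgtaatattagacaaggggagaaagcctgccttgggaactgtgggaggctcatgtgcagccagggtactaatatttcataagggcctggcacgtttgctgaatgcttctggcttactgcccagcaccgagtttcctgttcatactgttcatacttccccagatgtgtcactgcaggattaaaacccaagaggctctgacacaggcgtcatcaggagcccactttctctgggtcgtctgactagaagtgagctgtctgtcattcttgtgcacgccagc
Mmp25: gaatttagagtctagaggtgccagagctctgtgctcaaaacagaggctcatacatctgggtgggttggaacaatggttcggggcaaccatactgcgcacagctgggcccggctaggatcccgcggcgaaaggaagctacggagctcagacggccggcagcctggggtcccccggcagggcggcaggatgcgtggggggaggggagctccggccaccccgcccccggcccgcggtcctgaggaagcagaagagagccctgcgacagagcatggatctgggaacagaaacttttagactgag
The *Il23r* window holds the motif 2 times and the *Ccr6* and *Plxnd1* windows 1 time each, while these letters are not in the *Il1r1* and *Mmp25* windows shown. They are also absent from the second windows of *Ccr6* and *Il1r1* and from both windows of *Tmem176a*, which are not shown. Against untreated cells within run, *Il23r*, *Ccr6* and *Plxnd1* did not pass, while *Il1r1*, *Mmp25* and *Tmem176a* passed. Over all 32851 windows of this length, 16.3% hold the motif on either strand. Of the 15 genes of the IL-17 and gamma delta list 9 had a window, and 4 of these (*Il23r*, *Ccr6*, *Il17a* and *Il17f*) held it in at least 1, against 18.1% of all 27025 genes with a window. A match is a stretch of letters and was not measured as bound.

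Gene counts per library ran from 4522064 to 10579882 over the 12 libraries. Levels are counts scaled to 1000000 gene counts (CPM) with TMM scaling. Before TMM scaling a count of 0 allows up to 0.284 to 0.663 CPM in an untreated library, counting error only. In bulk samples, fewer cells of a type and less RNA per cell cannot be told apart. The sorted identity was present in every library. *Cd3e*, a chain of the T cell receptor complex, stood at 388, 402, 503, 525 and 507 CPM in combination replicates 1 to 5, against 406 to 483 CPM (median 449) in untreated libraries, and none of the 18 tested genes of the T cell identity list passed in either reading. *Cd4* was at 234, 276, 257, 238 and 253 CPM in combination libraries and at 199 to 299 CPM (median 238) in untreated ones.

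Transcripts of other blood and liver cells differed between the run sets within the combination group. The 10 erythroid markers in the table summed to 6320 and 14980 CPM in combination replicates 1 and 2 and to 70.7, 129 and 603 CPM in replicates 3 to 5, against 73.3 to 6633 CPM (median 3229) in untreated libraries. The 14 platelet markers summed to 491, 725, 91.6, 85.8 and 132 CPM in combination replicates 1 to 5 and to 75.3 to 230.1 CPM in untreated libraries. The 12 hepatocyte markers summed to 24.0 and 28.7 CPM in combination replicates 1 and 2 and to 1.41 to 5.48 CPM in the other 3, against 0.308 to 7.03 CPM in untreated libraries, and albumin (*Alb*) was at 12.7, 12.1, 0.257, 0 and 0 CPM in combination libraries. Monocyte markers summed to 408, 242, 164, 304 and 406 CPM in combination replicates 1 to 5 and to 143 to 246 CPM (median 176) in untreated libraries, and neutrophil markers to 15.6 to 49.2 CPM and 3.43 to 41.8 CPM. B cell marker sums overlapped, at 157 to 236 CPM in combination and 157 to 247 CPM in untreated libraries. Mitochondrially encoded genes took 16.6% and 16.8% of gene counts in combination replicates 1 and 2 and 9.84% to 11.7% in the other 3, against 10.8% to 16.8% in untreated libraries. Thus the 2 combination libraries on which the within-run reading rests were the highest of all 12 in platelet and hepatocyte markers, and the part of these transcripts in the results below was not tested unless a value is given.

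**Figure D1:**
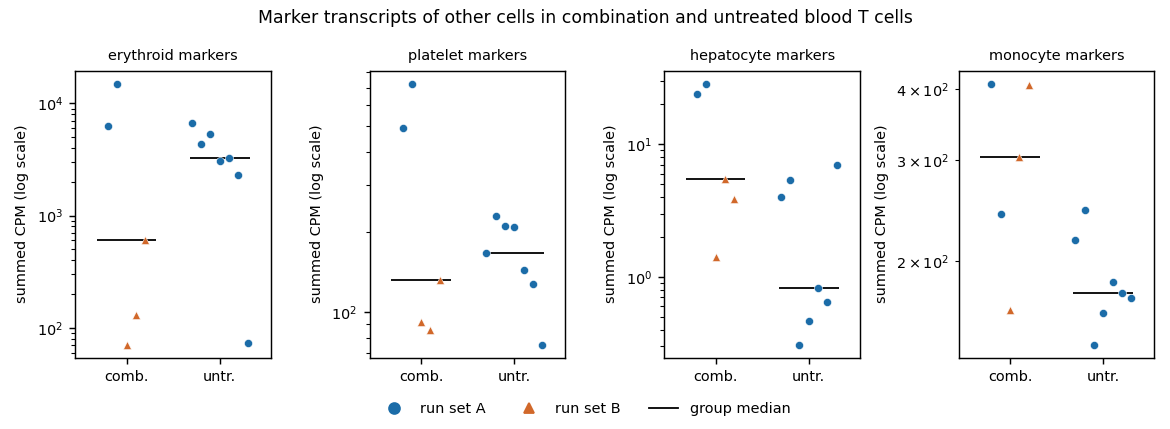
Summed CPM of marker genes of erythroid cells, platelets, hepatocytes and monocytes on log axes, 1 point per library, with combination libraries left of untreated ones, run set by colour and shape, and group medians as lines. Combination replicates 1 and 2 (run set A) stand above the untreated range for platelet (491 and 725 CPM) and hepatocyte (24.0 and 28.7 CPM) markers, while the 3 combination libraries of run set B lie at 85.8 to 132 and 1.41 to 5.48 CPM.

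None of the genes of the drug targets themselves passed the test against untreated cells. *Pdcd1* was at 51.6, 24.3, 81.9, 122.6 and 55.5 CPM in combination replicates 1 to 5, against 13.7 to 41.0 CPM (median 35.2) in untreated libraries. Replicate 2 lay inside the untreated range and the other 4 above it. The log2 difference was 0.47 ± 0.49 (standard error, here and below) in the within-run reading (edgeR adjusted p = 0.727) and 1.27 ± 0.45 in the pooled one (adjusted p = 0.106). *Cd274* was at 34.2, 24.3, 34.5, 28.8 and 28.9 CPM in combination and 25.6 to 36.2 CPM in untreated libraries, and *Pdcd1lg2* at 0.566 to 2.54 CPM and 0.577 to 2.50 CPM. *Cxcr2* was at 0.509, 3.02, 0.257, 0.267 and 0.298 CPM in combination T cells, against 0 to 2.12 CPM (median 0.156) in untreated T cells. The related receptor gene *Cxcr1* reached 1.91 and 2.64 CPM in combination replicates 1 and 2 and at most 0.746 CPM in the others, against at most 0.674 CPM in untreated libraries. Neither chemokine receptor gene had enough counts to be tested.

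Across the 12387 genes tested, 265 rose and 48 fell in the within-run reading at an adjusted p under 0.05, which is 2.53% of the genes (2.14% higher and 0.388% lower). The pooled reading called 406 higher and 156 lower, or 4.54% (3.28% higher and 1.26% lower). The readings shared 84 rises (0.678%) and 20 falls (0.161%) and called no gene in opposite directions. The shared genes were 33.2% of the within-run calls and 18.5% of the pooled calls. The median log2 difference over all tested genes was 0.0093 within run and 0.0131 pooled. TMM scaling places the bulk of genes near 0, so a shift of all genes together was not tested. By level alone, all 5 combination libraries lay above all 7 untreated ones for 169 genes (1.36%) and below them for 131 genes (1.06%). The within-run count rests on combination replicates 1 and 2. It was 134 without replicate 1 and 202 without replicate 2, and 198 without untreated replicate 5. In the same fit with erythroid and platelet marker sums as covariates it was 0 in edgeR, with 757 genes at an unadjusted p under 0.05. That alternative was chosen after seeing the data, and DESeq2 was not run on it. The platelet sums of combination replicates 1 and 2 both lay above all untreated ones, so this covariate overlaps with the group. Loss of calls in that fit was therefore to be foreseen in part, and its cause was not tested. In the pooled reading the same covariates left 142 calls, 35 of them among the 313 of the within-run reading.

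**Figure D2:**
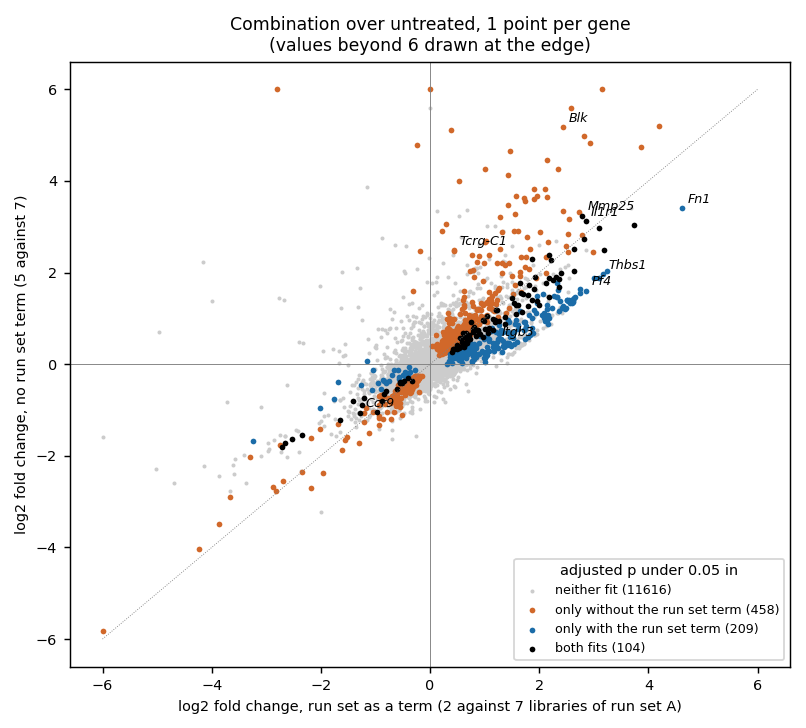
Log2 difference of combination over untreated for 12387 genes, within run (x axis, 2 against 7 libraries) and pooled (y axis, 5 against 7), coloured by the reading in which the adjusted p was under 0.05, with 5 genes beyond 6 drawn at the edge. Platelet genes such as *Itgb3* and *Thbs1* lie below the diagonal and were called within run only, *Blk* and *Tcrg-C1* lie above it and were called in the pooled reading only, and *Il1r1*, *Mmp25* and *Ccr9* lie near it and were called in both.

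*Il1r1*, *Rora* and *Mmp25* were higher in combination blood T cells, in the combination libraries of both run sets. *Il1r1* was at 11.4, 11.3, 12.3, 12.3 and 21.9 CPM in combination replicates 1 to 5, against 0.0962 to 5.47 CPM (median 0.868) in untreated libraries. Every combination library lay above every untreated one, whose highest was replicate 6. *Il1r1* rose by 2.85 ± 0.69 on the log2 scale within run (edgeR adjusted p = 0.0319) and by 3.12 ± 0.55 pooled (adjusted p = 0.00474), with means of 13.9 ± 4.53 CPM in combination and 1.59 ± 1.83 CPM in untreated libraries (SD, n = 5 and 7). *Rora* was at 136, 96.0, 116, 84.9 and 109 CPM in combination libraries, against 53.1 to 80.0 CPM (median 63.8) in untreated ones, again without overlap. It rose by 0.85 ± 0.20 within run (edgeR adjusted p = 0.0247) and by 0.74 ± 0.16 pooled (adjusted p = 0.0101). *Mmp25* was at 18.2, 11.3, 19.8, 17.1 and 36.2 CPM in combination libraries and at 0.674 to 3.69 CPM (median 2.16) in untreated ones. The groups stood well apart, and *Mmp25* rose by 2.78 ± 0.50 within run (edgeR adjusted p = 0.00607) and 3.24 ± 0.44 pooled (adjusted p = 0.00211).

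*Tmem176a* and *Tmem176b*, neighbours on chromosome 6 that encode related membrane proteins, were both above the untreated range in all 5 combination libraries. *Tmem176a* was at 25.4, 13.8, 16.0, 18.4 and 39.8 CPM in combination and 0.866 to 7.24 CPM (median 4.31) in untreated libraries, a rise of 2.19 ± 0.44 within run (edgeR adjusted p = 0.0137). *Tmem176b* was at 26.3, 16.2, 24.2, 23.7 and 55.02 CPM, against 2.21 to 10.6 CPM (median 6.16), a rise of 1.86 ± 0.48 (adjusted p = 0.0435). The annotated genes overlap on opposite strands and the counting strand is not given in the sources used here. They are therefore not independent. *Serpinb1a*, an inhibitor of neutrophil serine proteases that was chosen after its values were seen, was at 15.8, 19.2, 12.1, 11.8 and 14.6 CPM in combination and 1.64 to 9.81 CPM (median 4.29) in untreated libraries. It rose by 1.91 ± 0.41 within run (edgeR adjusted p = 0.0161). Pooled, these 3 genes rose by 2.38, 2.29 and 1.65 (adjusted p = 0.00273, 0.00428 and 0.00752).

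The within-run calls of these genes needed combination replicate 1. Without it the edgeR adjusted p was 0.189 for *Il1r1*, 0.409 for *Rora*, 0.132 for *Mmp25*, 0.282 for *Tmem176a*, 0.419 for *Tmem176b* and 0.0742 for *Serpinb1a*, with the sign kept in each. Without combination replicate 2 it was 0.104 for *Il1r1*, 0.0733 for *Tmem176b* and 0.1 for *Serpinb1a*. *Il1r1* also lost its call without untreated replicate 1, 4 or 5 (0.0507, 0.0583 and 0.0653), and *Tmem176b* without untreated replicate 1, 3, 4, 5 or 7 (0.0615 to 0.0743).

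The receptor gene *Il23r* passed in the pooled reading only. *Il23r* was at 7.63, 5.66, 8.08, 7.75 and 18.3 CPM in combination and 0.193 to 4.83 CPM (median 1.08) in untreated libraries, with no overlap. Its log2 difference was 2.16 ± 0.65 within run (edgeR adjusted p = 0.0891) and it rose by 2.66 ± 0.51 in the pooled reading (adjusted p = 0.00673). *Ccr6* passed in neither reading, at 37.1, 26.6, 8.73, 13.5 and 18.2 CPM in combination and 1.72 to 26.7 CPM (median 6.31) in untreated libraries. The cytokine genes were close to 0 in both groups, *Il17a* at 0 to 0.254 CPM in combination libraries and 0 in untreated ones, and *Il17f* at 0 to 0.149 and 0 to 0.965 CPM. Neither was tested.

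The 5 next genes, which mark gamma delta or innate-like T cells, were higher in combination replicates 3 to 5, those of run set B, than in replicates 1 and 2. The IL-17 and gamma delta list summed to 379, 259, 547, 634 and 661 CPM in combination replicates 1 to 5. In untreated libraries it summed to 129.9 to 257 CPM, so replicate 1 also lay above that range and replicate 2 at its upper edge. Without TMM scaling replicate 2 was at 248.2 CPM, inside the untreated range, whose highest was 254.7 CPM. With TMM scaling the list sum was 231.9 to 504.7 CPM in aPD1 libraries, all of run set B. In CXCR2i libraries it was 299.5 to 742.2 CPM in run set B and 532.3 and 346.8 CPM in run set C. *Tcrg-C1*, a constant region of the gamma chain, was at 4.45 and 2.26 CPM in combination replicates 1 and 2 and at 20.4, 21.3 and 22.8 CPM in replicates 3 to 5, against 1.69 to 4.29 CPM (median 2.57) in untreated libraries. *Blk*, a kinase of B cells that some gamma delta T cells also use, was at 4.45, 0.377, 24.6, 26.7 and 33.0 CPM in combination and at most 1.08 CPM in untreated libraries. *Sox13*, a transcription factor of gamma delta T cells, was at 0.254, 0, 10.0, 9.63 and 16.9 CPM and at 0 in all 7 untreated libraries. Its combination mean was 7.35 CPM. In the shallowest untreated library 0 counts allow up to 0.663 CPM before TMM scaling, so the scales differ and no fold change is given. *Cd163l1*, a scavenger receptor gene of gamma delta T cells, was at 10.9 and 7.35 CPM in combination replicates 1 and 2 and at 96.9, 78.5 and 95.7 CPM in replicates 3 to 5, against 4.98 to 23.2 CPM in untreated libraries. *Zbtb16*, the transcription factor PLZF of innate-like T cells, followed the same split, at 2.29, 2.45, 20.4, 22.2 and 30.0 CPM in combination and 0.804 to 5.15 CPM in untreated libraries. Within run none of the 5 passed, with edgeR adjusted p of 0.224 for *Blk*, 0.550 for *Sox13* and 0.685 to 0.958 for the other 3. In the pooled reading all 5 passed (adjusted p = 0.00339 to 0.0395), so for these genes the combination and run set B cannot be told apart against untreated cells.

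**Figure D3:**
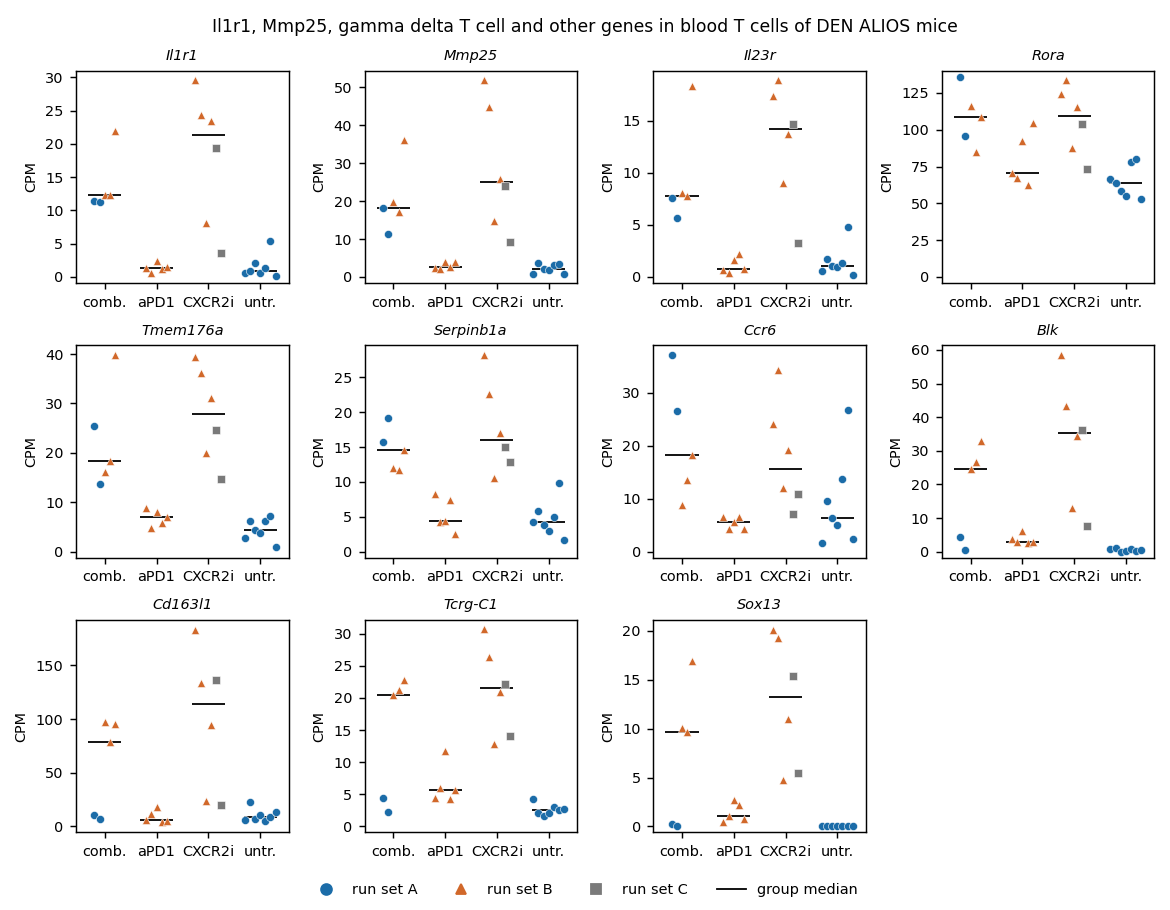
CPM of 11 genes, among them gamma delta T cell genes, 1 panel per gene and 1 point per blood T cell library of combination, aPD1, CXCR2i and untreated mice, with run set by colour and shape and group medians as lines. For *Il1r1*, *Mmp25* and *Tmem176a* combination libraries of both run sets lie above the untreated ones. *Blk*, *Cd163l1*, *Tcrg-C1* and *Sox13* are, within the combination group, high in the 3 libraries of run set B, and CXCR2i libraries of run set B are high as well. The aPD1 libraries, all of run set B, lie below those 3 combination libraries for *Blk*, *Cd163l1* and *Tcrg-C1*.

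Of the 15 genes of the IL-17 and gamma delta list 14 are in the table and 11 were tested, with *Trdc* not analysed here. Within run 2 of the 11 rose and none fell, beside 2.14% higher among all tested genes, and their median log2 difference was 1.76. In the pooled reading 9 rose and none fell, beside 3.28% higher among all genes, with a median of 2.46. Leaving out *Sox13*, whose fitted change against 0 is no bound, the medians were 1.31 and 2.40. Members that passed the count filter only through a group where they are high had to differ, so these counts describe the list and are no test of it. The count of the list within run ranged from 0 to 5 over the fits that leave out 1 library, with 0 without combination replicate 1 and 5 without untreated replicate 6.

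Platelet genes, 8 of 12 tested, rose within run, and none passed in the pooled reading. *Itgb3*, an integrin chain of platelets, was at 161 and 207 CPM in combination replicates 1 and 2 and at 57.7, 58.6 and 72.2 CPM in replicates 3 to 5, against 66.7 to 97.4 CPM (median 77.5) in untreated libraries. The first 2 lay above and 2 of the other 3 below every untreated library. *Itgb3* rose by 1.22 ± 0.13 within run (edgeR adjusted p = 3.11e-05), and kept that call without any 1 library, and differed by 0.49 ± 0.25 in the pooled reading (adjusted p = 0.274). *Thbs1*, which encodes thrombospondin 1 of platelet granules, was at 338, 366, 18.7, 14.2 and 34.5 CPM in combination and 3.37 to 73.1 CPM (median 49.96) in untreated libraries. It rose by 3.16 ± 0.69 within run (edgeR adjusted p = 0.022) and differed by 1.96 ± 0.80 pooled (adjusted p = 0.16). *Pf4*, platelet factor 4, was at 21.2, 32.4, 1.54, 0.401 and 1.79 CPM in combination, against 0.289 to 7.59 CPM in untreated libraries, and *Vwf*, von Willebrand factor, at 70.7, 102, 5.90, 4.28 and 10.3 CPM, against 0.866 to 28.9 CPM. Both rose within run, by 2.85 and 2.74 (adjusted p = 0.022 and 0.0377), and neither passed when pooled (adjusted p = 0.271 and 0.246). Of the 12 tested platelet markers 8 rose within run, beside 2.14% higher among all genes, with a median of 2.38, and none passed in the pooled reading. The within-run count was 1 without combination replicate 1 or 2, and 5, 3 and 4 without untreated replicates 4, 5 and 6. Apart from *Itgb3* the calls of the named genes needed both combination replicates. Without replicate 1 the adjusted p was 0.103 for *Thbs1*, 0.0722 for *Pf4* and 0.125 for *Vwf*, and without replicate 2 it was 0.0856, 0.128 and 0.167. *Vwf* also lost its call without untreated replicate 1, 3, 5 or 6 (0.0509 to 0.0761). With only the 3 combination libraries of run set B and no run term, the log2 differences of these 4 genes were negative, -0.34 to -1.60.

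Of the 17 genes of the naive and recirculating list, which mark resting T cells, 1 fell within run and 6 in the pooled reading. *Ccr9*, a homing receptor for the small intestine, was at 11.6, 14.5, 15.7, 16.4 and 17.9 CPM in combination replicates 1 to 5, against 22.8 to 47.7 CPM (median 28.3) in untreated libraries, with no overlap. It fell by 1.29 ± 0.28 on the log2 scale within run (edgeR adjusted p = 0.0171) and by 1.06 ± 0.19 pooled (adjusted p = 0.00428). Without combination replicate 1 or 2 the within-run adjusted p was 0.238 or 0.0617. *Lef1*, a transcription factor of naive T cells, was at 241, 410, 368, 345 and 322 CPM in combination and 461 to 590 CPM (median 492) in untreated libraries, again without overlap. Its log2 difference was -0.64 ± 0.19 within run (edgeR adjusted p = 0.0771), and it fell by 0.59 ± 0.13 in the pooled reading (adjusted p = 0.0114). The 1 fall within run stands beside 0.388% lower among all genes, with a list median of -0.25, and the count was 0 without combination replicate 1 and 3 without combination replicate 2. The 6 pooled falls stand beside 1.26% lower among all genes, with a list median of -0.37, and *Foxp1*, *Satb1* and *Dapl1* were among them. The other members did not pass, 16 within run and 11 pooled.

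Some effector and memory genes rose, 3 of 22 within run and 6 of 22 in the pooled reading. *Anxa1*, annexin A1, was at 12.3, 12.1, 10.3, 5.62 and 13.7 CPM in combination libraries, against 2.34 to 7.81 CPM (median 3.22) in untreated ones, where only combination replicate 4 and untreated replicate 2 crossed. It rose by 1.71 ± 0.35 within run (edgeR adjusted p = 0.012) and 1.52 ± 0.29 pooled (adjusted p = 0.00503). *Ahnak*, a giant scaffold protein, was at 4096, 2236, 2646, 2381 and 2721 CPM, against 1649 to 2388 CPM (median 1950), and rose by 0.66 ± 0.16 within run (edgeR adjusted p = 0.0247) and 0.49 ± 0.13 pooled (adjusted p = 0.0286). *Cd44*, the adhesion receptor of antigen-experienced T cells, was at 210.5, 167, 156, 147 and 194 CPM, against 118 to 173 CPM (median 132). It rose by 0.48 ± 0.13 within run (edgeR adjusted p = 0.0438) and differed by 0.36 ± 0.11 pooled (adjusted p = 0.0544). *Ccr2*, a chemokine receptor for inflamed tissue, was above the untreated range in all 5 combination libraries, at 139, 112, 106, 109 and 198 CPM against 47.1 to 97.8 CPM. It missed the threshold within run (0.93 ± 0.25, edgeR adjusted p = 0.057) and rose by 1.00 ± 0.19 in the pooled reading (adjusted p = 0.00608). The 3 rises within run stand beside 2.14% higher among all genes (list median 0.31) and the 6 pooled rises beside 3.28% (list median 0.48), and no member passed as a fall in either. The within-run count was 0 without combination replicate 1, 1 without untreated replicate 5, and 5 without combination replicate 4 or untreated replicate 2. Without combination replicate 1 the within-run adjusted p was 0.102 for *Anxa1*, 0.799 for *Ahnak* and 0.53 for *Cd44*, and without combination replicate 2 it was 0.0562 for *Anxa1*. *Ahnak* also lost its call without untreated replicate 5 (0.0529), and *Cd44* without combination replicate 3 or untreated replicate 1, 3, 4, 5, 6 or 7 (0.0515 to 0.0822).

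Single genes of the signalling, stress and metabolism lists rose as well. *Fosl2*, an AP-1 transcription factor, was at 37.1, 30.0, 23.2, 28.1 and 29.7 CPM in combination libraries and 17.4 to 22.8 CPM (median 20.9) in untreated ones, and rose by 0.73 ± 0.17 within run (edgeR adjusted p = 0.018) and 0.54 ± 0.13 pooled (adjusted p = 0.0192). *Slc2a3*, a glucose transporter, was at 82.4, 81.1, 59.9, 66.7 and 70.1 CPM, against 44.8 to 60.5 CPM, and rose by 0.59 ± 0.11 within run (edgeR adjusted p = 0.00422) and 0.40 ± 0.09 pooled (adjusted p = 0.0114). *Atf6*, a sensor of endoplasmic reticulum stress, was at 68.2, 44.9, 48.2, 57.8 and 66.2 CPM, against 23.3 to 39.9 CPM with no overlap, and rose by 0.81 in both readings (adjusted p = 0.0258 within run and 0.00385 pooled). Without combination replicate 1 these within-run calls had adjusted p of 0.313, 0.0548 and 0.519. The endoplasmic reticulum stress list did not rise with *Atf6* within run, where 1 member rose, 1 fell and the median difference was -0.135 (pooled 0.0965). Its summed level split by run set. It was 1909 and 1979 CPM in combination libraries of run set A, below the untreated range of 2106 to 2511 CPM. In those of run set B it was above that range, at 2744 to 2828 CPM. *Socs3*, a feedback inhibitor of cytokine signalling, and *Bcl2l1*, which encodes the survival protein BCL-XL, rose within run only. *Socs3* was at 118, 217, 75.1, 73.9 and 111 CPM in combination and 61.6 to 80.2 CPM in untreated libraries (1.20 ± 0.26, edgeR adjusted p = 0.0201). *Bcl2l1* was at 84.8, 148, 33.4, 35.7 and 46.5 CPM, against 20.2 to 67.3 CPM (1.31 ± 0.28, adjusted p = 0.0178). In both genes replicate 2 was the highest, and the adjusted p without it was 0.308 and 0.239. *Klrk1*, the NKG2D receptor, rose by 0.72 ± 0.16 within run (edgeR adjusted p = 0.016, and 0.331 without combination replicate 1) and differed by 0.46 ± 0.13 pooled (adjusted p = 0.0518).

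The interferon-stimulated list, 30 genes, had a median log2 difference of -0.26 within run and -0.02 pooled. *Tgtp2*, an interferon-inducible GTPase, fell within run, by 0.87 ± 0.17 (edgeR adjusted p = 0.00877, and 0.0516 and 0.0794 without combination replicate 1 and 2), and differed by -0.34 ± 0.15 pooled (adjusted p = 0.194).

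None of the 18 cytotoxic effector genes passed in either reading (median 0.02 within run and 0.46 pooled), nor did any of 17 checkpoint and exhaustion genes (0.17 and 0.50), 5 genes of PD-1 and its ligands, 30 cell cycle genes or 16 antigen presentation genes. Of 14 regulatory T cell genes none passed within run and 3 rose in the pooled reading, *Il2ra*, *Tnfrsf4* and *Capg*, the first of which encodes the high-affinity chain of the interleukin-2 receptor. Among 16 NK and NKT receptor genes 1 rose within run and 3 pooled, among 24 immediate early genes 1 and 2, among 13 genes of chemokine receptors and adhesion 1 and 2, among 23 cytokine and receptor genes 1 and 2, among 19 genes of glycolysis and hypoxia 1 and 4, and among 16 survival and apoptosis genes 1 and 0. Of 17 genes of endoplasmic reticulum stress 1 rose and 1 fell within run and 2 rose pooled, of 11 heat shock genes 1 fell pooled, and of 19 genes of T cell receptor signalling 1 rose pooled. Among all genes 2.14% rose and 0.388% fell within run, and 3.28% rose and 1.26% fell pooled. A count of 1 in lists of these sizes is no result about the list. The monocyte markers had 1 rise within run and 6 in the pooled reading among 12 tested, beside 2.14% and 3.28% higher among all genes, with medians of 2.11 and 2.70, the pooled one the highest of all lists. The 1 rise was *Fn1*, fibronectin, at 222, 26.4, 3.08, 9.23 and 13.1 CPM in combination libraries, against 0.322 to 20.6 CPM (median 0.664) in untreated ones. It rose by 4.61 ± 1.01 within run (edgeR adjusted p = 0.0217) and its adjusted p was 0.588 without combination replicate 1, its highest library. The pooled rises included *Csf1r*, the macrophage colony-stimulating factor receptor, at 2.54, 6.79, 2.69, 26.5 and 41.0 CPM, against 0.154 to 5.21 CPM.

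**Figure D4:**
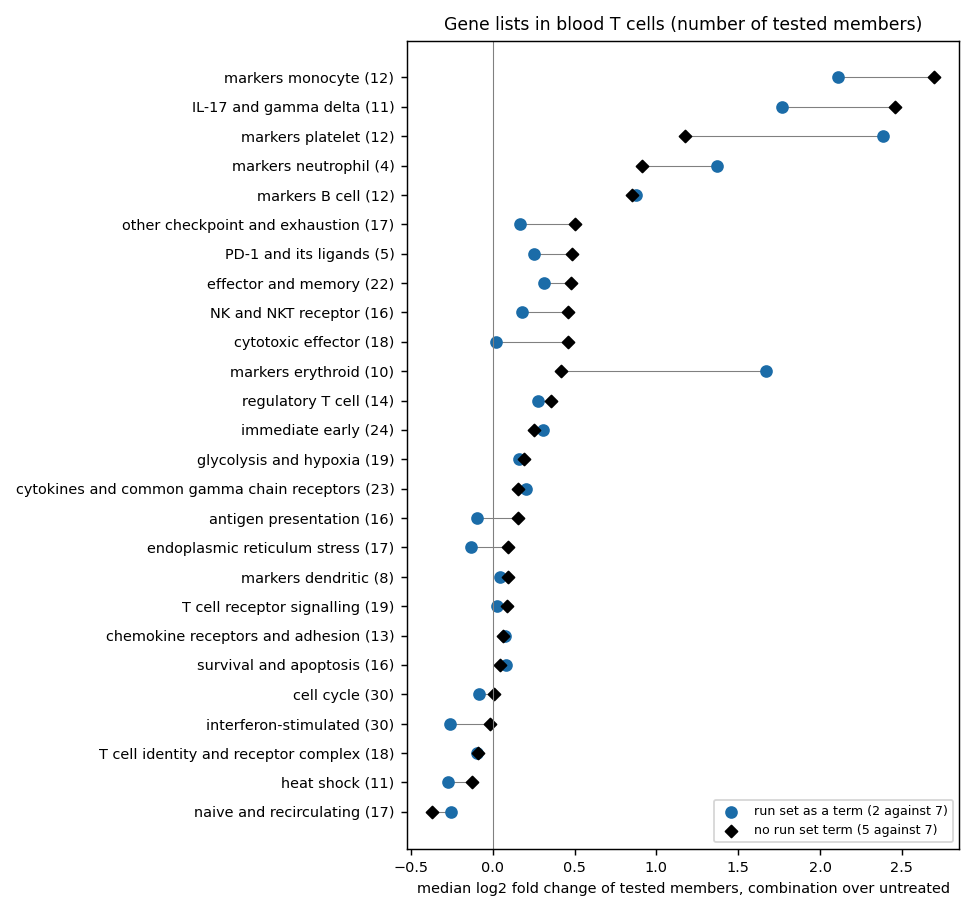
Median log2 difference of combination over untreated among the tested members of each gene list, within run (circles, 2 against 7 libraries) and pooled (diamonds, 5 against 7). The hepatocyte markers, of which 1 gene was tested, are not drawn. The IL-17 and gamma delta list stands at 1.76 and 2.46, the platelet markers at 2.38 and 1.17, and the naive and recirculating list is lowest in the pooled reading at -0.37.

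Among the 313 genes called within run 47 rises and 15 falls had no overlap between the groups, and 46 and 15 of these were called in the pooled reading as well. The pooled reading tests the same libraries whose separation picked these genes. Its calls were therefore to be foreseen and are no separate support. Among the rises was *Ppfibp1*, a liprin scaffold protein, at 15.3, 11.3, 13.1, 12.2 and 12.7 CPM in combination and 5.15 to 9.17 CPM (median 6.93) in untreated libraries. It rose by 0.99 ± 0.17 within run (edgeR adjusted p = 0.00219) and 0.94 ± 0.13 pooled (adjusted p = 0.0019). *Fkbp5*, a co-chaperone of steroid receptors, was at 88.2, 71.3, 89.7, 88.9 and 85.6 CPM, against 44.3 to 59.2 CPM (median 56.7), and rose by 0.60 ± 0.14 within run (edgeR adjusted p = 0.0254) and 0.68 ± 0.11 pooled (adjusted p = 0.00273). *Lamc1*, a laminin chain, and *B4galnt4*, a glycosyltransferase, rose by 1.04 ± 0.23 and 1.66 ± 0.33 within run (adjusted p = 0.0198 and 0.011) and by 1.06 ± 0.18 and 1.56 ± 0.26 pooled. *Rnf19b*, a ubiquitin ligase, rose by 0.67 ± 0.13 and 0.61 ± 0.10. Without combination replicate 1 the within-run adjusted p of these 5 genes was 0.114 to 0.384, and *Fkbp5* also lost its call without untreated replicate 5 (0.0517).

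Among the falls that were called in both readings and had no overlap were *Smc4*, a subunit of the condensin complex that packs chromosomes, and *Ift80*, a cilium transport gene that adjoins it on chromosome 3. *Smc4* was at 378, 418, 559.6, 509 and 415 CPM in combination libraries, against 621 to 792 CPM (median 712) in untreated ones. It fell by 0.84 ± 0.15 within run (edgeR adjusted p = 0.00347) and by 0.65 ± 0.11 pooled (adjusted p = 0.00339). *Ift80* was at 61.0, 67.9, 79.6, 73.4 and 57.3 CPM, against 96.4 to 149.7 CPM (median 121), and fell by 0.89 ± 0.19 within run (edgeR adjusted p = 0.0142) and 0.81 ± 0.14 pooled (adjusted p = 0.00314). In both the groups were apart. *Slc6a19*, an amino acid transporter, was at 7.63 to 16.8 CPM in combination and 16.9 to 28.9 CPM in untreated libraries, and *Sorcs2*, a sorting receptor, at 4.45 to 9.63 and 11.3 to 18.0 CPM. They fell by 1.25 ± 0.26 and 1.41 ± 0.28 within run (edgeR adjusted p = 0.0113 and 0.00857) and by 0.89 ± 0.18 and 0.80 ± 0.21 pooled. Without combination replicate 1 the within-run adjusted p of the 4 genes was 0.0588 for *Smc4* and 0.14 to 0.204 for the others, and *Ift80* had 0.0607 without combination replicate 2.

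Within run set B the combination could be set against each drug alone. Against aPD1 alone (3 against 5 libraries) 20 genes rose and none fell, 0.161% of those tested, and 348 genes had an unadjusted p under 0.05. DESeq2 called 35. Of the 11 tested IL-17 and gamma delta genes 6 rose, with a median of 2.92 beside 0.0005 for all genes. That count was lower in every fit that leaves out 1 library, from 0 without combination replicate 5 to 4 without aPD1 replicate 3. Here too, members that passed the count filter only through groups where they are high had to differ. The count and median describe the list and are no test of it. *Il1r1* was at 12.3, 12.3 and 21.9 CPM in combination replicates 3 to 5, against 0.641 to 2.45 CPM (median 1.32) in aPD1 libraries, and rose by 3.42 ± 0.66 (edgeR adjusted p = 0.0385). *Mmp25* was at 19.8, 17.1 and 36.2 CPM, against 2.05 to 4.04 CPM (median 2.54), and rose by 3.02 ± 0.46 (adjusted p = 0.00472). *Il23r* was at 8.08, 7.75 and 18.3 CPM, against 0.385 to 2.20 CPM (median 0.779), and rose by 3.34 ± 0.62 (adjusted p = 0.0286). In these 3 genes every combination library lay above every aPD1 library.

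*Tcrg-C1* rose by 1.72 ± 0.28 over aPD1 alone (edgeR adjusted p = 0.00593), with 20.4, 21.3 and 22.8 CPM in combination and 4.24 to 11.7 CPM (median 5.61) in aPD1 libraries. *Blk* rose by 2.92 ± 0.51 (adjusted p = 0.0221, aPD1 range 2.54 to 6.21 CPM), *Zbtb16* by 2.55 ± 0.44 (0.0205, 2.18 to 5.00 CPM), *Cd163l1* by 3.3005 ± 0.63 (0.0385, 4.41 to 17.8 CPM) and *Plxnd1* by 2.08 ± 0.40 (0.0385, 4.67 to 10.1 CPM). *Adam12*, a metalloproteinase chosen after its values were seen, rose by 3.58 ± 0.48 (edgeR adjusted p = 0.00203), at 8.98, 7.89 and 9.99 CPM in combination and 0.467 to 0.994 CPM in aPD1 libraries. It was the only one of these 9 genes that kept its call without any 1 library. *Mmp25* and *Tcrg-C1* each had 0.0629 without combination replicate 5, which was the highest of the 3 for both. *Il23r* lost its call without combination replicate 5 (0.277) or aPD1 replicate 1, 2, 3 or 5 (0.0606 to 0.123), and *Blk* and *Zbtb16* theirs without combination replicate 4 or 5 or aPD1 replicate 1, 2, 4 or 5 (0.0544 to 0.152). *Il1r1* and *Plxnd1* lost theirs without any of the 10, and *Cd163l1* without all but aPD1 replicate 3 (0.0562 to 0.344). The count of calls was 5 without combination replicate 5, 10 without replicate 4, 8 to 9 without aPD1 replicate 1, 2, 4 or 5, and 14 or 15 without any of the others.

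Against CXCR2i alone (3 against 4 libraries of run set B) 67 genes rose and 9 fell, 0.614% of those tested (0.541% higher and 0.0727% lower), and none of the IL-17 and gamma delta genes passed, with a median of -0.27. *Il1r1* was at 12.3, 12.3 and 21.9 CPM in combination replicates 3 to 5, against 29.6, 24.3, 8.13 and 23.4 CPM in CXCR2i libraries of the same run set (-0.47 ± 0.57, edgeR adjusted p = 0.759). *Mmp25* was at 19.8, 17.1 and 36.2 CPM, against 51.9, 44.9, 14.8 and 25.9 CPM (-0.50 ± 0.41, adjusted p = 0.634), and *Tcrg-C1* differed by -0.09 ± 0.28 (adjusted p = 0.928). For all 3 the groups overlapped. A missed threshold in 3 against 4 libraries does not show that the groups are alike.

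*Pdcd1*, *Lag3* and some cytotoxic genes were among the 67 genes that rose against CXCR2i alone. *Pdcd1* was at 81.9, 122.6 and 55.5 CPM in combination replicates 3 to 5, against 14.3, 8.77, 14.0 and 13.9 CPM in CXCR2i libraries of run set B, and rose by 2.76 ± 0.49 (edgeR adjusted p = 0.0219). *Lag3*, another inhibitory receptor, was at 62.0, 105 and 37.9 CPM, against 4.38 to 9.00 CPM, and rose by 3.23 ± 0.68 (adjusted p = 0.0364). *Prf1*, perforin, was at 108, 115 and 97.8 CPM, against 45.1 to 58.0 CPM, and rose by 1.12 ± 0.18 (adjusted p = 0.00952). *Gzmk*, granzyme K, and *Ccl4*, a chemokine, rose by 2.68 ± 0.52 and 2.63 ± 0.53 (both adjusted p = 0.0278), and *Cd8a* rose by 0.63 ± 0.12 (0.0174). *Klra7*, a receptor for major histocompatibility molecules, fell by 1.31 ± 0.21 (edgeR adjusted p = 0.00952). In all 7 genes the 3 combination libraries and the 4 CXCR2i libraries of run set B stood apart. Of the 18 cytotoxic effector genes 4 rose, beside 0.541% among all genes, with a median of 1.06, and 14 did not pass. That count ranged from 0 to 7 over the fits that leave out 1 library, with 0 without combination replicate 4 or CXCR2i replicate 2 or 4, 1 without combination replicate 3 or CXCR2i replicate 3, and 7 without CXCR2i replicate 5 or 6. The 2 CXCR2i libraries of run set C, which do not enter this comparison, had *Pdcd1* at 20.3 and 61.6 CPM. Without combination replicate 4 or CXCR2i replicate 2 edgeR called 0 genes, with 993 and 1300 at an unadjusted p under 0.05, and DESeq2, which was not run without single libraries, called 260 on all of them. Without either of these libraries the adjusted p of the 7 genes was 0.0809 to 0.278. The count was 13 without combination replicate 3, 10 and 1 without CXCR2i replicates 3 and 4, and 208 without CXCR2i replicate 1. *Pdcd1*, *Lag3*, *Gzmk* and *Ccl4* also lost their calls without combination replicate 3 or CXCR2i replicate 3 or 4 (0.0624 to 0.115), *Cd8a* without combination replicate 3 or CXCR2i replicate 4 (0.0772 and 0.0673) and *Prf1* without CXCR2i replicate 4 (0.0558). In aPD1 libraries *Pdcd1* was at 53.4 to 157 CPM and *Gzmk* at 60.0 to 201 CPM, and neither passed in the combination against aPD1.

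**Figure D5:**
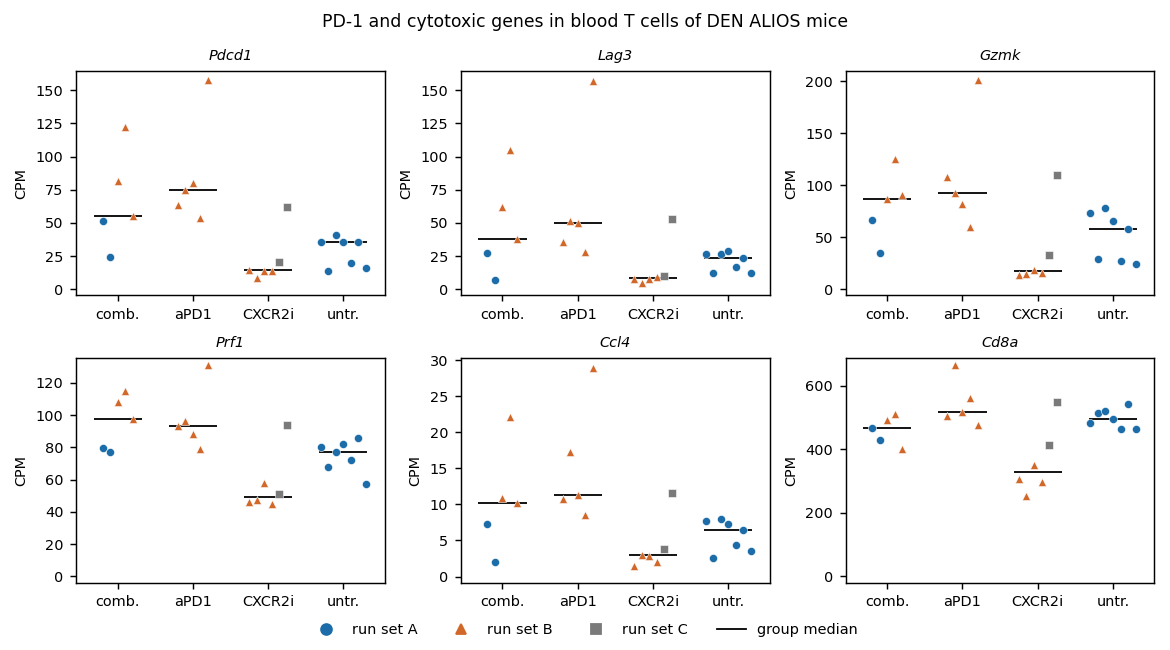
CPM of *Pdcd1*, *Lag3*, *Gzmk*, *Prf1*, *Ccl4* and *Cd8a*, 1 panel per gene and 1 point per blood T cell library of combination, aPD1, CXCR2i and untreated mice, with run set by colour and shape and group medians as lines. Combination libraries of run set B lie above the CXCR2i libraries of run set B in every panel, with *Pdcd1* at 55.5 to 122.6 CPM against 8.77 to 14.3 CPM.

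How far libraries of 1 group differ by run set can be read within the combination group. Run set B against run set A (3 against 2 libraries) gave 83 rises and 259 falls, 2.76% of the genes (0.67% higher and 2.09% lower), beside 313 calls in the within-run drug comparison. All 10 tested erythroid markers fell, with a median of -5.22, and 8 of the 12 platelet markers, with a median of -3.64. *Itgb3* fell by 1.55 ± 0.16 (edgeR adjusted p = 1.1e-05), and *Bcl2l1* by 1.60 ± 0.34 (adjusted p = 0.011, and 0.055 to 0.193 without combination replicate 2, 3 or 4). *Tcrg-C1* rose by 2.62 ± 0.42 (adjusted p = 0.000793). Of the IL-17 and gamma delta list 3 rose, with a median of 1.15 and the same limit from the count filter. *Il1r1*, *Mmp25* and *Rora* were not among the genes that passed. With erythroid and platelet sums as covariates edgeR called 0 genes, with 1202 at an unadjusted p under 0.05. Both sums stood apart between the run sets in this group, so the covariates overlap with run set. In the fit without covariates the count was 135, 188 and 181 without combination replicate 2, 3 and 4.

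Whether the combination's difference from untreated was the same in liver as in blood was tested in animals that gave T cells from both. The animal was a block, with site by run set as a term. All 6 untreated animals were of run set A, so the test rests on 2 combination against 6 untreated animals of that run set. The other 3 combination animals, of run set B, add to the estimate of the spread only. Levels below cover all 5 combination animals. Titles name the second site liver, while the protocol names tumours. Of 13430 genes 0 had a higher and 11 a lower difference in liver than in blood (0.0819%), with 1388 at an unadjusted p under 0.05, and DESeq2 called 18 in all. Without the run set term, where all 5 combination animals enter, edgeR called 0 genes, with 947 at an unadjusted p under 0.05. The edgeR count was 26 without the combination animal of blood replicate 1, and 7 without that of blood replicate 2, 4 or 5 or the untreated animal of blood replicate 2, 6 or 7. *Il1r1* was not among the 11. Its liver level was at 8.65 to 44.1 CPM (median 15.1) in combination and 1.05 to 5.26 CPM (median 2.39) in untreated animals, again with no overlap, and the difference of the differences was -1.37 ± 0.81 on the log2 scale (edgeR adjusted p = 0.573). *Mmp25* behaved alike in its levels, at 11.0 to 49.6 CPM in combination and 1.03 to 9.81 CPM in untreated livers (-0.56 ± 0.78, adjusted p = 0.842). Among the 11 genes were the plasma protein genes *Alb*, *Gc*, *Fgb*, *Fgg* and *Pzp*, which hepatocytes make, and *Clic4*, a chloride channel protein. *Alb* was at 40.3 to 2055 CPM in combination and 7.71 to 310.2 CPM in untreated liver libraries, and at 0 to 12.7 and 0.157 to 2.07 CPM in blood libraries of the same animals. Its difference of differences was -4.70 ± 0.65 (edgeR adjusted p = 0.00462, and 0.0745 without the untreated animal of blood replicate 7). *Clic4* was at 24.4 to 47.0 CPM in combination and 38.7 to 60.3 CPM in untreated liver libraries, and at 29.0 to 62.4 and 20.2 to 34.5 CPM in blood, a difference of differences of -1.65 ± 0.28 (adjusted p = 0.0184, and 0.195 without the combination animal of blood replicate 2). In blood alone *Clic4* rose by 1.04 ± 0.17 within run (edgeR adjusted p = 0.00219).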

How the data were processed

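Raw read counts per gene were deposited by the authors as 1 table with 37713 genes. Per the submitters' processing notes, reads were handled with HTSeq 0.11.2, HISAT2 2.1.0, FastQC 0.11.8 and Trim Galore 0.6.4 on GRCm38. The summary entries of HTSeq, 69.9% of all entries, were left out.

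All 23 blood T cell libraries from DEN ALIOS mice entered 1 edgeR fit (4.0.16, R 4.3.3) with group and run set as terms. Genes passed filterByExpr with a minimum count of 10 and a total of 15, libraries were scaled by TMM, and the robust quasi-likelihood test was adjusted by Benjamini-Hochberg over all tested genes at 0.05. Each SE was derived from its log2 fold change and F value. CPM refer to 1000000 counts after TMM scaling. This step was tested on simulated data with known changes in the combination group. The simulation held no run set difference and no transcripts of other cells, so it does not cover these limits. Alternatives included RLE scaling, DESeq2 1.42.0, an unfiltered fit, other run terms, a replicate block and left-out libraries. Marker covariates and the subset of run set B combination libraries were chosen after seeing the data. Plots used matplotlib 3.10.9, and promoter sequences are from RefSeq.

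The members and gene lists were chosen with earlier results of these data known. The rule for named genes took the drug targets, up to 4 called members per list with the smallest p (or 2 if no member was called), the 10 largest rises and 10 largest falls at 10 CPM or more, and the 10 called genes with separated groups and the smallest p, leaving out predicted genes, receptor segments, ribosomal and mitochondrial genes and pseudogenes. The other genes, among them *Blk*, *Il23r*, *Sox13*, *Tmem176b*, *Lef1*, *Clic4* and *Adam12*, were added after their values were seen. Same-numbered libraries of the 2 groups deviated with correlations of -0.0895 to 0.137, 1 of 5 above 0.1, so title numbers do not pair them. None of 31 library pairs within groups was a copy (lowest chi-square per degree of freedom 4.12). Some genes of the lists are not reported here.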

Additional observations from a re-analysis of the deposited data

Results flagged for a closer look

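Of 100 sets of values examined, 14 held 1 library farther from the rest than Dixon's 95% limit, where chance gives about 1 in 20. Combination replicate 5 was high for *Il1r1* (21.9 CPM), *Il23r* (18.3 CPM) and *Tmem176b* (55.02 CPM), combination replicate 1 for *Ahnak* (4096 CPM), *Fn1* (222 CPM) and summed B cell markers (236 CPM), and combination replicate 2 was low for *Fkbp5* (71.3 CPM). Among untreated libraries, replicate 6 was high for *Il1r1* (5.47 CPM), *Il23r* (4.83 CPM) and *B4galnt4* (9.65 CPM). Untreated replicate 2 was high for *Anxa1* (7.81 CPM) and summed dendritic cell markers (113 CPM), replicate 1 for *Sorcs2* (18.0 CPM), and replicate 7 was low for *Clic4* (19.6 CPM).

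The combination's difference from untreated was lower in liver than in blood for 11 genes, by the edgeR test of that difference. That test rests on 2 combination and 6 untreated animals of run set A. The log2 differences of differences were -6.29 for *Gc*, -4.56 for *Fgg*, -4.70 for *Alb*, -3.49 for *Fgb* and -4.57 for *Pzp*, all plasma protein genes. They were -1.65 for *Clic4*, -1.15 for *Ghitm*, -1.01 for *Yipf4*, -2.43 for *Dlg2* and -0.81 for *Tpm4*, with edgeR adjusted p from 3.69e-05 for *Gc* to 0.0443 for *Dlg2*. The fitted value of -12.26 for *Timp3* rests on blood libraries at or near 0 (0 to 1.32 CPM in combination and 0 to 0.0988 CPM in untreated animals) and is no measure of size. The 5 plasma protein genes also rest on few blood counts. *Gc*, *Fgg* and *Fgb* were at 0 in 3 of 5 combination libraries and below 0.6 CPM in every untreated one, while *Alb* was at 12.7, 12.1, 0.257, 0 and 0 CPM in combination and 0.154 to 2.02 CPM in untreated libraries.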

How the results depend on the processing

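The 313 calls of combination against untreated in the within-run reading kept within 1.5 times under RLE factors, no filter, DESeq2, single runs and without libraries labelled Vehicle (240 to 437). The count was 562 with no run term, 148 with only the 12 libraries, 83 with run set A alone and 40 with the title number as a replicate block, 39 of them among the 313. Chosen after seeing the data, it was 0 in edgeR with erythroid and platelet covariates (757 at an unadjusted p under 0.05), 142 with these and no run term, and 1080 with the 3 combination libraries of run set B and no run term, 86 of them among the 313. Against aPD1 alone, 20 calls became 12 with no filter, 35 in DESeq2, 10 with the replicate block, 2 with no run term, 12 with the covariates and 9 with these and no run term. Against CXCR2i alone, 76 became 260 in DESeq2, 10 with the replicate block, 7 with no run term, 223 without libraries labelled isotype, and 1 each for run set B combination libraries alone and for covariates, both without run term. Run set B against A gave 182 with the replicate block and 0 in edgeR with covariates (1202 at an unadjusted p under 0.05), and liver minus blood 18 in DESeq2 and, in edgeR, 0 without run term (947 at an unadjusted p under 0.05) or without animal block (1026). Since title numbers do not pair the animals, the block is reported for its counts only. Leaving out 1 library at a time gave 134 to 317, 5 to 15, 0 to 208, 135 to 306 and 7 to 26 in that order of comparisons. Of 34 named calls against untreated, 30 were lost without combination replicate 1, 14 without replicate 2, and 2 (*Itgb3* and *Clic4*) in no case. The cause was not tested.

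Signs turned for few genes. Without 1 library, *Blk* ranged from -0.33 to 3.16 and *Pdcd1* from -0.20 to 0.88. With run set B combination libraries and no run term, *Itgb3* was at -0.34, *Pf4* -1.60, *Thbs1* -0.84, *Vwf* -0.95, *Bcl2l1* -0.30 and *Canx* 0.11. With covariates *Pf4* was at -0.99, *Thbs1* -0.87 and *Vwf* -1.66, and with these and no run term *Pf4* was at -0.35, *Vwf* -0.0265 and *Canx* 0.0039. The platelet covariate is a sum over platelet markers, *Pf4*, *Thbs1* and *Vwf* among them. It takes up part of their own difference, so their turned signs are no separate result. Genes well under 1 CPM rest on few counts. Of 86 mean levels recomputed per library total in place of TMM scaling, 85 moved by less than 1 SD and that of *Canx* in untreated libraries moved by more, to 288.3 CPM.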

Other observations

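Some genes outside the lists had all 5 combination libraries on 1 side of all 7 untreated ones. *Odc1*, the first enzyme of polyamine synthesis, was at 33.6, 37.7, 34.3, 27.8 and 35.2 CPM in combination libraries, against 15.2 to 24.95 CPM (median 23.1) in untreated ones, and rose by 0.72 on the log2 scale within run (edgeR adjusted p = 0.0142) and 0.64 pooled (adjusted p = 0.00428). *L1cam*, an adhesion molecule, was at 53.0, 42.0, 48.0, 41.3 and 49.95 CPM, against 25.8 to 37.5 CPM, and rose by 0.62 and 0.59 (adjusted p = 0.0142 and 0.00314). *Slamf1*, a receptor of the SLAM family on activated T cells, was at 47.3, 36.2, 37.5, 49.1 and 38.2 CPM, against 17.8 to 33.8 CPM, and rose by 0.79 and 0.77 (adjusted p = 0.0472 and 0.00673). *Dkc1*, the dyskerin subunit of telomerase and of small nucleolar particles, was at 57.7, 60.7, 60.8, 54.96 and 54.9 CPM, against 69.0 to 81.3 CPM, and fell by 0.34 and 0.37 (adjusted p = 0.0365 and 0.00273). *Lars2*, a mitochondrial leucine tRNA synthetase, was at 2144 to 3127 CPM in combination and 3934 to 8438 CPM in untreated libraries, and fell by 1.05 pooled (edgeR adjusted p = 0.00752) while the within-run difference was -1.04 (adjusted p = 0.0892). These genes were chosen after their values were seen.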
